A study of Homo sapiens with 12 samples.

Results

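The cell cycle genes described here are the D cyclins CCND1, CCND2 and CCND3, their kinases CDK4 and CDK6, the CDK inhibitors CDKN1B, CDKN2A and CDKN2B, and the pocket proteins RB1 and RBL1. They were taken by gene symbol, and all 10 were found among the 62656 Ensembl identifiers of the count table. RNA was sequenced from the HCT116 and LoVo lines, both established from human colorectal cancers, in a study of the long non-coding RNA SLERT in liver metastasis. HCT116 cells were given as SLERT overexpression (OE) and as a control whose columns are headed as vector, and LoVo cells as SLERT knockdown (KD) and as a control whose columns are headed ShNC. Each of the 4 groups holds 3 libraries, and nothing in the labels says whether these came from separate cultures or clones, so the p-values here speak only of the spread among these libraries, and that spread may be technical. The assignment of the vector columns to the HCT116 control rests on their heading.

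In the G1 phase of the cell cycle, D cyclins bind CDK4 or CDK6, and the active kinases phosphorylate RB1 and its relatives RBL1 and RBL2. Unphosphorylated pocket proteins hold E2F transcription factors in check, and their phosphorylation lets E2F target genes for DNA replication be transcribed. The INK4 inhibitors encoded by CDKN2A and CDKN2B bind CDK4 and CDK6 directly, and p27, encoded by CDKN1B, acts mainly on cyclin E and cyclin A kinases while it also binds the D cyclin complexes. CCND1 is often highly transcribed in colorectal cancer.

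Library totals ran from 14.46 to 17.23 M counts. SNORA5C, a snoRNA that forms an end of SLERT, had 1926 counts over the OE libraries against 16 over the HCT116 controls, a ratio of 126 with an exact counting interval of 77.2 to 220. In LoVo it had 37 counts over the KD libraries and 37 over the controls, a ratio of 0.967 with an exact counting interval of 0.596 to 1.57. SNORA5A, the snoRNA at the other end, had 10 counts with KD and 12 in the controls, a ratio of 0.806 with an interval of 0.312 to 2.04. A fall of either snoRNA was not detectable at this depth, and a ratio down to the lower bounds is within the counting error. The rest of SLERT was not read here. TBRG4, at the same locus, had a log2 fold change of 0.66 with OE (edgeR adjusted p = 5.24e-08) and of 0.07 with KD (edgeR adjusted p = 0.413). The LoVo groups are named by their labels throughout. Of 10 markers of colorectal epithelium, 6 were above 1 FPKM (fragments per kilobase of gene per M mapped) in both HCT116 groups and 10 in both LoVo groups. VIL1, LGALS4 and CDH17 were the lowest in HCT116, at means of 0.052, 0.073 and 0.076 FPKM in OE and 0.012, 0.062 and 0.156 FPKM in the controls. Of 8 retina markers, searched because the extraction protocol speaks of retinas, only RPE65 was above 1 FPKM.

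Promoter windows of 250 bases upstream of a RefSeq transcript start (GRCh38.p14) were found for 8 of the 10 genes. They were searched on both strands for an E2F motif (TTTCCCGC, TTTCGCGC, TTTGCCGC or TTTGGCGC), for the E-box CACGTG, which MYC and MAX can bind, and for an AP-1 motif (TGACTCA or TGAGTCA). Over 35116 promoters of the same length, 2.79% held the E2F motif, 6.34% held the E-box and 4.20% held the AP-1 motif. Of 12 windows over these genes, only those of RBL1 and CDK4 had a match, and they are shown. RBL1 and CDK4 had the smallest edgeR p-values of the 9 genes tested in HCT116 with OE, where neither was called. Their motifs differ, CCND1 and CCND2 had no window, and a link of motif to change was not tested. The only RB1 window (chr13:48476200-48476449) lies inside the gene, which begins at 48303726 on the plus strand. The CDK4 window, the only CDKN1B window (chr12:12717118-12717367) and every CCND3 window also lie inside the gene spans given here with each gene. The bases before the outermost annotated start of RB1, CDK4, CDKN1B and CCND3 were therefore not searched. RBL1 lies on the minus strand (chr20:37095998-37096247) and has an E2F match 26 and another 16 bases before its start. CDK4 lies on the minus strand (chr12:57752311-57752560) and has 3 E-boxes, which begin 216, 196 and 101 bases before the RefSeq start used. That start lies inside the gene span, whose outermost start is at 57756013. Both are written in the direction of transcription with the matches in capitals, and a match is a description of letters, not a bound site.
RBL1 promoter: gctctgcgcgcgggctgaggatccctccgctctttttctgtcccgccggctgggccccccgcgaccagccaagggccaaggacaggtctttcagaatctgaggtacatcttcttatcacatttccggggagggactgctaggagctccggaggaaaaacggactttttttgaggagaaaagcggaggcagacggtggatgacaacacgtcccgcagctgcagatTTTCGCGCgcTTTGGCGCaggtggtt
CDK4 promoter: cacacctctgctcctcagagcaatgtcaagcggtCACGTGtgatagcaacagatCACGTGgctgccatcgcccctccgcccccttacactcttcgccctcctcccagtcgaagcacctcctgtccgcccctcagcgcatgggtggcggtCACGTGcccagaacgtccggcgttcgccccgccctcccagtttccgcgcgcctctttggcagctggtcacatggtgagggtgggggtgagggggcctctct

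The comparisons asked how these genes stand when SLERT is raised in HCT116 or targeted in LoVo. In LoVo with KD, transcripts of CCND2, CDKN1B and RBL1 rose and those of CCND1, CCND3 and CDKN2B fell, 6 of the 10 genes tested (60.0%), against 26.3% of all 16253 genes tested (12.6% called higher and 13.7% called lower). The groups did not overlap in normalised counts for 6 of the 10, against 39.8% of all genes. The median log2 fold change of the 10 genes was 0.01, and that of all genes was 0.00. In HCT116 with OE, 0 of the 9 genes that passed the low-count filter were called by the edgeR quasi-likelihood test, against 0.914% of all 15980 genes tested (0.507% called higher and 0.407% called lower). At an unadjusted p under 0.05, 4 of the 9 stood out (CCND1, CDK4, CDK6 and RBL1), as did 14.4% of all genes. DESeq2 and limma called 0 of them, but DESeq2 gave no adjusted p for RBL1 and so could not call it. The median log2 fold change of the 9 was 0.13 and that of all genes was -0.00, and 8 of the 9 were positive. The groups did not overlap for 2 of the 9 (CCND1 and RBL1), against 19.0% of all genes. CCND2 was left out of the HCT116 fit by the filter.

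**Figure D1:**
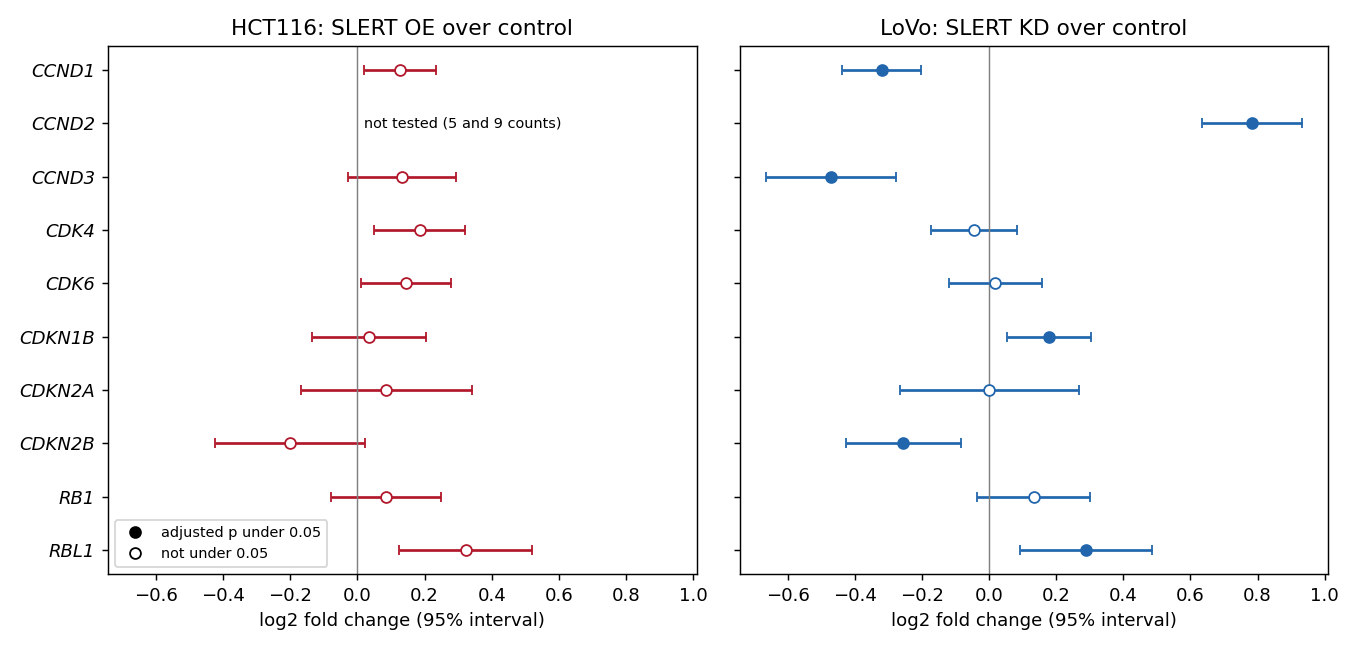
Log2 fold change (x axis) of each gene (rows) in HCT116 with SLERT overexpression over control and in LoVo with SLERT knockdown over control. Points are edgeR estimates, bars are 95% intervals, and filled points have an adjusted p under 0.05. In LoVo, 6 of the 10 points are filled, and in HCT116 0 of 9 are.

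CCND1, the main D cyclin of many epithelial cells (ENSG00000110092, chromosome 11, 69641087 to 69654474, plus strand), was the most abundant D cyclin per length in every library. Its level was 80.2, 78.1 and 80.6 FPKM in the OE libraries, against 76.2, 75.6 and 70.4 FPKM in the HCT116 controls. It was 42.4, 43.2 and 43.1 FPKM in the KD libraries, against 55.0, 52.9 and 56.4 FPKM in the LoVo controls. All 3 OE libraries were above every HCT116 control and all 3 KD libraries were below every LoVo control, so the groups of neither line overlapped. In LoVo, CCND1 fell by 0.32 on the log2 scale (SE 0.057, edgeR adjusted p = 0.000227), and it was called in all 14 alternatives. In HCT116, its log2 fold change of 0.13 (SE 0.052) did not pass the test (edgeR adjusted p = 0.244). LTO1, which overlaps CCND1 on the opposite strand, had 5622 counts over the 12 libraries against 56972 for CCND1, and the sources used here do not say whether counting used strand.

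CCND2, a D cyclin with tissue-restricted expression (ENSG00000118971, chromosome 12, 4273772 to 4305350, plus strand), was close to the counting limit in HCT116 and plainly expressed in LoVo. The OE libraries held 3, 2 and 0 counts and the HCT116 controls 1, 7 and 1 counts, a ratio of 0.580 over the group sums with an exact counting interval of 0.153 to 1.93. Its level was 9.23, 9.89 and 9.60 FPKM in the KD libraries, against 5.33, 5.85 and 5.89 FPKM in the LoVo controls. Every KD library was well above every LoVo control. CCND2 rose 1.72-fold with KD (log2 fold change 0.78, SE 0.072, edgeR adjusted p = 2.40e-08), the largest change among the 10 genes in LoVo. It was called in all 14 alternatives, with log2 fold changes of 0.66 to 0.81.

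CCND3, the third D cyclin (ENSG00000112576, chromosome 6, 41934933 to 42050357, minus strand), had 7.83, 7.58 and 7.77 FPKM in the OE libraries and 7.96, 6.60 and 6.90 FPKM in the HCT116 controls. Those ranges overlapped, and the log2 fold change of 0.13 did not pass the test (edgeR adjusted p = 0.455). In LoVo it had 5.31, 4.82 and 4.35 FPKM with KD, against 7.12, 6.13 and 7.26 FPKM in the controls. The KD libraries lay below every control, and CCND3 fell by 0.47 on the log2 scale (SE 0.093, edgeR adjusted p = 0.000654), a call kept in all 14 alternatives.

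CCND2 rose while CCND1 and CCND3 fell, and the makeup of the D cyclin pool per length differed between the LoVo groups. CCND2 made up 16.7% ± 0.437 of the summed D cyclin FPKM in KD cells and 8.46% ± 0.557 in LoVo controls (SD, n = 3 each). The share of CCND1 was 74.9% ± 0.585 in KD cells and 81.4% ± 0.256 in LoVo controls, and that of CCND3 was 8.42% ± 0.855 in KD cells and 10.1% ± 0.604 in LoVo controls. The summed level was 57.3 ± 0.559 FPKM in KD cells and 67.3 ± 2.37 FPKM in LoVo controls, and the libraries of the groups did not overlap. In HCT116, the sum was 87.4 ± 1.43 FPKM with OE and 81.2 ± 3.57 FPKM in the controls, and CCND1 held 91.1% ± 0.063 of it with OE and 91.2% ± 0.695 in the controls. These shares are given with no test. In bulk RNA, fewer cells that use a cyclin and less RNA of it per cell cannot be told apart.

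**Figure D2:**
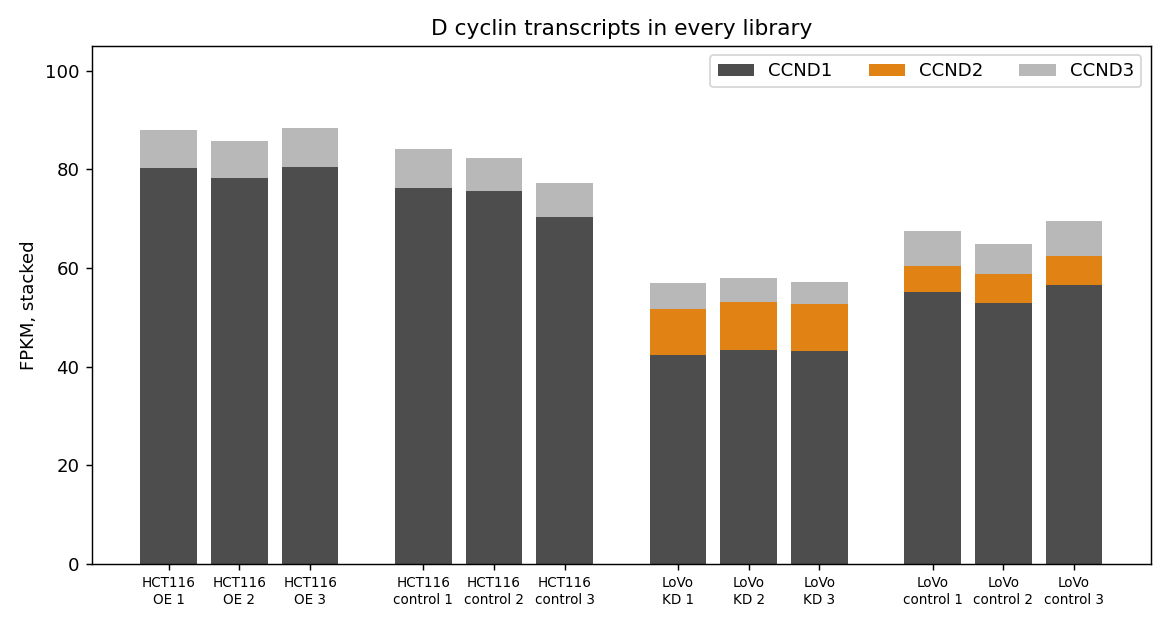
Stacked FPKM (y axis) of CCND1, CCND2 and CCND3 in each of the 12 libraries (x axis). The CCND2 segment is thicker in all 3 LoVo knockdown libraries (9.23 to 9.89 FPKM) than in the LoVo controls (5.33 to 5.89 FPKM) and is not visible in HCT116, where the summed bars are tallest.

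CDK4 and CDK6, the kinases that D cyclins activate, did not pass the test in either line. CDK4 (ENSG00000135446, chromosome 12, 57747727 to 57756013, minus strand) had 38.6, 40.8 and 42.1 FPKM in the OE libraries and 34.0, 34.2 and 40.2 FPKM in the HCT116 controls. HCT116 control 3 lay within the OE range, the other two controls below it, and the log2 fold change was 0.19 (SE 0.066, edgeR adjusted p = 0.168). Without HCT116 control 3 the log2 fold change of CDK4 was 0.27 and it was called (edgeR adjusted p = 0.0297). In LoVo, CDK4 had 72.4, 68.8 and 66.6 FPKM with KD and 68.8, 72.8 and 77.6 FPKM in the controls, with overlapping ranges and a log2 fold change of -0.04 (95% interval -0.17 to 0.08, edgeR adjusted p = 0.647). TSPAN31 and MARCH9, on the opposite strand at CDK4, had 1904 and 8328 counts over the 12 libraries against 31496 for CDK4.

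CDK6 (ENSG00000105810, chromosome 7, 92604921 to 92836594, minus strand) had 9.20, 9.60 and 8.62 FPKM in the OE libraries and 8.41, 9.17 and 7.61 FPKM in the HCT116 controls (log2 fold change 0.14, edgeR adjusted p = 0.300). It had 11.3, 13.7 and 11.99 FPKM with KD and 12.45, 12.44 and 12.37 FPKM in the LoVo controls (log2 fold change 0.02, 95% interval -0.12 to 0.16, edgeR adjusted p = 0.874). In both lines the ranges overlapped. Per length, CDK4 made up 81.6% ± 1.24 of the summed CDK4 and CDK6 level with OE, 81.0% ± 2.71 in HCT116 controls, 84.9% ± 1.56 with KD and 85.4% ± 0.790 in LoVo controls (SD, n = 3 each).

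CDKN1B, which encodes p27 (ENSG00000111276, chromosome 12, 12715058 to 12722371, plus strand), had 14.3, 14.8 and 15.04 FPKM in the KD libraries, against 13.4, 13.6 and 12.95 FPKM in the LoVo controls. The ranges were close but did not overlap. CDKN1B rose by 0.18 on the log2 scale (SE 0.060, edgeR adjusted p = 0.0304), a small change near the threshold. The call was lost without KD 3 and without LoVo control 1, 2 or 3, with edgeR adjusted p of 0.124, 0.0789, 0.0557 and 0.135, without the low-count filter (adjusted p = 0.0538) and in the fits on FPKM. In HCT116 it had 3.93, 4.22 and 3.503 FPKM with OE and 3.56, 4.03 and 3.98 FPKM in the controls, with overlapping ranges and a log2 fold change of 0.03 (95% interval -0.14 to 0.20).

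CDKN2B, which encodes the INK4 inhibitor p15 (ENSG00000147883, chromosome 9, 22002903 to 22009363, minus strand), had 7.58, 8.15 and 8.95 FPKM in the KD libraries, against 10.2, 9.78 and 10.1 FPKM in the LoVo controls. All KD libraries were below all controls, and CDKN2B fell by 0.26 on the log2 scale (SE 0.083, edgeR adjusted p = 0.0249). That call was lost without KD 1 (adjusted p = 0.0772), LoVo control 1 (0.0799) or LoVo control 3 (0.101). In HCT116 it had 3.32, 3.98 and 3.53 FPKM with OE and 4.48, 4.34 and 3.82 FPKM in the controls. OE 2 lay above HCT116 control 3, and the log2 fold change of -0.20 did not pass the test (edgeR adjusted p = 0.407).

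CDKN2A, which encodes the INK4 inhibitor p16 and, from another start, the p53 regulator ARF (ENSG00000147889, chromosome 9, 21967753 to 21995301, minus strand), has counts that do not separate these products. It had 4.36, 3.70 and 5.65 FPKM with OE and 4.74, 4.46 and 3.88 FPKM in the HCT116 controls, and the OE libraries held both the highest and the lowest value. It had 2.90, 2.48 and 2.42 FPKM with KD and 2.67, 2.57 and 2.72 FPKM in the LoVo controls. The log2 fold change was 0.09 in HCT116 (95% interval -0.17 to 0.34) and 0.00 in LoVo (95% interval -0.27 to 0.27), so changes of that size are within the error. CDKN2B-AS1, which overlaps both INK4 genes on the opposite strand, had 630 counts over the 12 libraries, against 2626 for CDKN2A and 4836 for CDKN2B. MTAP and CDKN2B-AS1, the tested neighbours at this locus, had log2 fold changes of -0.06 and -0.10 in HCT116 and of 0.12 and 0.23 in LoVo, none of them called.

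RB1, the retinoblastoma protein gene (ENSG00000139687, chromosome 13, 48303726 to 48599436, plus strand), had 8.78, 9.88 and 7.94 FPKM with OE and 8.25, 9.44 and 7.80 FPKM in the HCT116 controls. It had 8.32, 10.8 and 9.73 FPKM with KD and 8.94, 8.98 and 9.02 FPKM in the LoVo controls. The ranges overlapped in both lines, and the log2 fold changes of 0.08 in HCT116 (edgeR adjusted p = 0.688) and 0.13 in LoVo (edgeR adjusted p = 0.244) did not pass the test. Without KD 1 the LoVo value was 0.22 and was called (edgeR adjusted p = 0.0285).

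RBL1, which encodes the pocket protein p107 and is itself a known E2F target (ENSG00000080839, chromosome 20, 36996349 to 37095995, minus strand), was higher in the manipulated libraries of both lines. It had 3.41, 3.74 and 3.52 FPKM with OE and 2.81, 3.07 and 2.78 FPKM in the HCT116 controls. It had 4.62, 4.94 and 4.60 FPKM with KD and 4.14, 4.27 and 3.45 FPKM in the LoVo controls. In each line all 3 manipulated libraries were above all 3 controls. RBL1 rose with KD (log2 fold change 0.29, SE 0.095, edgeR adjusted p = 0.0278), a call lost without KD 2 (adjusted p = 0.0587), KD 3 (0.0563) or LoVo control 3 (0.191) and in both fits on FPKM (0.122 and 0.118). With OE its log2 fold change of 0.32 (SE 0.096), the highest of the 9 genes tested in HCT116, missed the threshold (edgeR adjusted p = 0.104). RBL1 made up 21.9% ± 0.961 of the summed RB1, RBL1 and RBL2 level per length with OE and 18.5% ± 0.411 in HCT116 controls, and 19.8% ± 0.852 with KD and 18.2% ± 1.56 in LoVo controls (SD, n = 3 each).

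**Figure D3:**
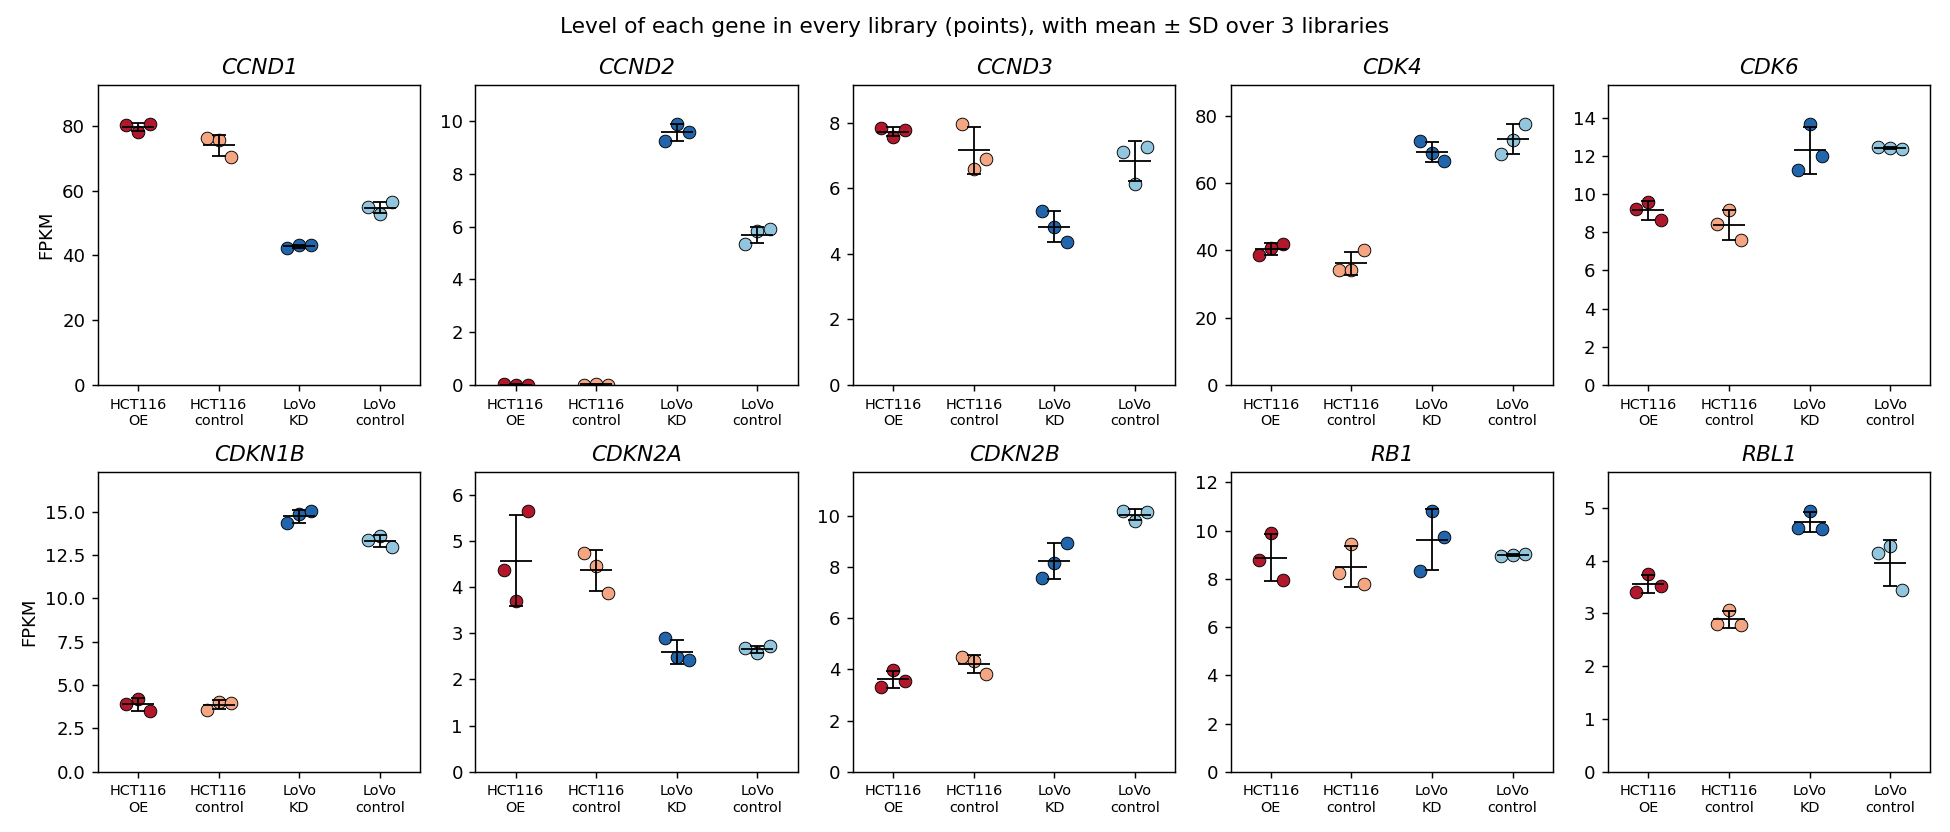
FPKM (y axes, from 0, with a scale of its own for each gene) in every library of the 4 groups (x axes). Points are libraries and bars are the mean ± SD of 3 libraries. CCND2 is near 0 in both HCT116 groups, and CCND1 is higher in both HCT116 groups (70.4 to 80.6 FPKM) than in both LoVo groups (42.4 to 56.4 FPKM).

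The difference of the labelled effects of more SLERT, OE minus control in HCT116 against control minus KD in LoVo, was tested in a fit of all 12 libraries. It was called for 2 of the 10 genes (20.0%), against 14.6% of all 18199 genes. RBL1 had a difference of 0.61 on the log2 scale (SE 0.134, edgeR adjusted p = 0.00247), and it was called in all 18 alternatives. CDKN2B had a difference of -0.46 (SE 0.133, edgeR adjusted p = 0.0196), a call lost without OE 1 (adjusted p = 0.0591) or HCT116 control 1 (0.0676). CCND1 (-0.20, edgeR adjusted p = 0.0708) and CCND3 (-0.34, edgeR adjusted p = 0.0677) missed the threshold. CCND3 passed it without HCT116 control 2 (adjusted p = 0.0460), KD 1 (0.0243) or LoVo control 2 (0.0321). CCND1 passed it with DESeq2 (adjusted p = 0.0410), with upper quartile factors (0.04999) and in both fits on FPKM (0.0174 and 0.0195). For CCND2 the HCT116 side rests on 5 and 9 counts, and nothing is read from its value.

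The control cells of the lines differed at 8 of the 10 genes (80.0%), close to the 76.6% of all genes that were called between HCT116 control and LoVo control (38.7% higher and 37.9% lower in HCT116). This contrast holds everything that differs between the lines. CCND1 (log2 difference 0.54) and CDKN2A (0.82) were higher in HCT116 controls, with edgeR adjusted p of 1.30e-10 and 3.34e-06. CDK4 (-0.91), CDK6 (-0.46), CDKN1B (-1.68), CDKN2B (-1.15) and RBL1 (-0.35) were lower in HCT116 controls, with edgeR adjusted p from 2.29e-19 for CDKN1B to 0.00170 for RBL1. CCND2 had 9 counts over the HCT116 controls and 2014 over the LoVo controls, a ratio of LoVo to HCT116 of 254 with an exact counting interval of 134 to 557. CCND3 (0.17, edgeR adjusted p = 0.0794) and RB1 (0.02, edgeR adjusted p = 0.805) did not pass the test. CCND3 passed it without HCT116 control 2 (adjusted p = 0.0299) or LoVo control 3 (0.0492).

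The INK4 pair was composed differently in the lines. CDKN2A made up 55.5% ± 6.75 of the summed CDKN2A and CDKN2B level per length with OE, 50.8% ± 0.482 in HCT116 controls, 24.1% ± 3.26 with KD and 20.9% ± 0.217 in LoVo controls (SD, n = 3 each). In the order of normalised levels over the 4 groups, CCND2, CDK4, CDK6, CDKN1B and CDKN2B had both LoVo groups above both HCT116 groups with no overlap between lines. CDKN2A had both HCT116 groups above both LoVo groups, and within each line its groups overlapped. For RBL1, the LoVo controls and the OE libraries were neighbours that overlapped, between the KD libraries above and the HCT116 controls below. For CCND1 every pair of neighbours stood apart, with OE highest and KD lowest, and for RB1 every pair overlapped.

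Other genes of the pathway were read from lists, which give counts and medians with no test of the list. The lists were chosen with earlier results of these data known, so their counts are descriptions only. Among 20 E2F target genes of S phase, 11 rose with OE in HCT116 and 0 fell, against 0.507% of all genes called higher, and the median log2 fold change was 0.25. MCM4, a subunit of the replicative helicase, had 382 ± 1.84 CPM with OE and 299 ± 0.842 CPM in the controls. CPM are counts per M of the library total, adjusted by TMM factors. MCM4 had a log2 fold change of 0.35 (edgeR adjusted p = 0.000278) and was called in all 13 alternatives. The helicase subunits MCM5 (0.35) and MCM3 (0.31) also rose (edgeR adjusted p = 0.00152 and 0.00197), and both lost the call in the fits on FPKM. The count of 11 became 4 without OE 2, 5 without OE 3, 5 without HCT116 control 1, 4 without HCT116 control 2, and 1 in each fit on FPKM. In LoVo with KD, 1 of the 20 rose and 3 fell, with a median of 0.01, where 12.6% of all genes were called higher and 13.7% lower. The 4 of 20 called in either direction were not a larger share than the 26.3% called among all genes. RFC3, a clamp loader subunit, rose by 0.38 and TK1, thymidine kinase, fell by 0.29 on the log2 scale (edgeR adjusted p = 0.00140 and 0.00194). MCM2 fell by 0.24 (edgeR adjusted p = 0.0117), a call lost without KD 3 (0.0562), LoVo control 1 (0.0651) or LoVo control 3 (0.0920). The LoVo count of 4 was 2 without KD 3, LoVo control 1 or LoVo control 3.

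Of 4 other CDK inhibitors, 2 fell with KD (CDKN1A and CDKN2C) and 2 did not pass the test, where 13.7% of all genes were called lower. CDKN1A, which encodes the p53 target p21, had 68.0 ± 1.89 CPM with KD and 165 ± 4.60 CPM in the controls (log2 fold change -1.28, SE 0.063, edgeR adjusted p = 4.82e-13). CDKN2C, which encodes the INK4 inhibitor p18, fell by 0.35 on the log2 scale (edgeR adjusted p = 0.0180), a call lost without KD 2 (0.0674), KD 3 (0.0837), LoVo control 2 (0.0573) or LoVo control 3 (0.0602). CDKN1C, which encodes the p27 relative p57, had a log2 fold change of 0.69 with KD (edgeR adjusted p = 0.0827), and CDKN2D, which encodes the INK4 inhibitor p19, had -0.22 (edgeR adjusted p = 0.328). In HCT116 0 of the 4 were called by edgeR, where 0.914% of all genes were called, and DESeq2 and limma called 0. At an unadjusted p under 0.05 stood 1 of the 4 (CDKN1A, log2 fold change 0.11), as did 14.4% of all genes.

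Among 11 E2F factors, DP partners and RBL2, 1 rose with OE and 2 changed with KD, against 0.914% of all genes called in HCT116 and 26.3% in LoVo, so the LoVo count was not above that of all genes. E2F2, an activator E2F, rose by 0.29 on the log2 scale with OE (edgeR adjusted p = 0.0433), and this call was lost in 9 of 13 alternatives, among them all that left out OE 2, OE 3 or any HCT116 control, with edgeR adjusted p up to 0.186 in those. With KD, E2F4, an E2F that acts mainly in repression, fell by 0.28 (edgeR adjusted p = 0.00305), and E2F5, of the same kind, rose by 0.41 (edgeR adjusted p = 0.0368). The E2F5 call was lost without KD 2 (0.182), KD 3 (0.0939), LoVo control 2 (0.118) or LoVo control 3 (0.176). RBL2, the third pocket protein, had log2 fold changes of -0.11 with OE and 0.16 with KD and did not pass the test (edgeR adjusted p = 0.600 and 0.0816).

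Of the MuvB core and B-MYB, which join pocket proteins or B-MYB at cell cycle promoters, 1 of 6 rose with OE, where 0.507% of all genes were called higher. With KD, 1 rose and 1 fell, where 26.3% of all genes were called, and nothing is read from a count that small. MYBL2, which encodes B-MYB, had 199 ± 14.9 CPM with OE and 166 ± 0.808 CPM in HCT116 controls (log2 fold change 0.26, edgeR adjusted p = 0.0250). Its call was lost without OE 1 (0.0998), OE 3 (0.0868), HCT116 control 1 (0.117) or HCT116 control 2 (0.116). With KD it had 226 ± 18.6 CPM, against 307 ± 15.8 CPM in LoVo controls (log2 fold change -0.45, edgeR adjusted p = 1.93e-05), a call kept in all 14 alternatives. LIN54, the DNA-binding subunit of MuvB, rose by 0.19 with KD (edgeR adjusted p = 0.0487), and 10 of 14 alternatives lost that call, among them those without KD 2, KD 3 or any LoVo control, with edgeR adjusted p from 0.0817 to 0.183.

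Among 13 genes of the cyclin E, A and B kinases, 1 rose with OE and 3 rose with KD. Of all genes, 0.507% were called higher with OE, and with KD 26.3% were called in either direction and 12.6% higher. CDC25A, a phosphatase that activates CDK2, rose by 0.35 with OE (edgeR adjusted p = 0.0159), a call lost without OE 3 (0.0969), HCT116 control 1 (0.117) or HCT116 control 2 (0.110). With KD, CDK7, the kinase of the CDK-activating complex, rose by 0.44 (edgeR adjusted p = 0.000671) in every alternative. The mitotic cyclins CCNB1 (0.22, edgeR adjusted p = 0.00966) and CCNB2 (0.21, edgeR adjusted p = 0.0274) also rose. CCNB1 lost its call without LoVo control 1 (0.0542) or LoVo control 3 (0.0580), and CCNB2 without KD 2, KD 3 or any LoVo control (0.0692 to 0.113).

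Among 13 genes of ubiquitin ligases that act on D cyclins, cyclin E or p27, 1 rose with OE, and 1 rose and 5 fell with KD. Of all genes, 0.507% were called higher with OE, and 12.6% were called higher and 13.7% lower with KD. RNF123, a ligase subunit for p27, fell by 0.36 with KD (edgeR adjusted p = 0.00111) in every alternative. DDB1, an adaptor of CUL4 ligases, fell by 0.19 (edgeR adjusted p = 0.0127), and FBXO31, an F-box protein that binds cyclin D1, by 0.23 (edgeR adjusted p = 0.01998). DDB1 lost its call without KD 3 (0.0713), LoVo control 1 (0.0633) or LoVo control 3 (0.0706), and FBXO31 without KD 2 (0.0765), KD 3 (0.0736), LoVo control 1 (0.0857) or LoVo control 3 (0.104). CKS1B, a partner of SKP2 in p27 turnover, rose by 0.24 with OE (edgeR adjusted p = 0.0477), a call lost without OE 2 (0.150), OE 3 (0.157), HCT116 control 1 (0.266) or HCT116 control 2 (0.147). CKS1B was also the 1 gene of the list that rose with KD (log2 fold change 0.25, edgeR adjusted p = 0.0250), a call lost without KD 2 (0.0577) or LoVo control 1 (0.197) and in the fits on FPKM. The LoVo count of 6 was 3 without KD 2 and 2 without KD 3, LoVo control 1 or LoVo control 3. Of the list genes named here as called in HCT116, all but MCM4 lost their call in both fits on FPKM, as did E2F5, LIN54 and CCNB2 in LoVo.

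**Figure D4:**
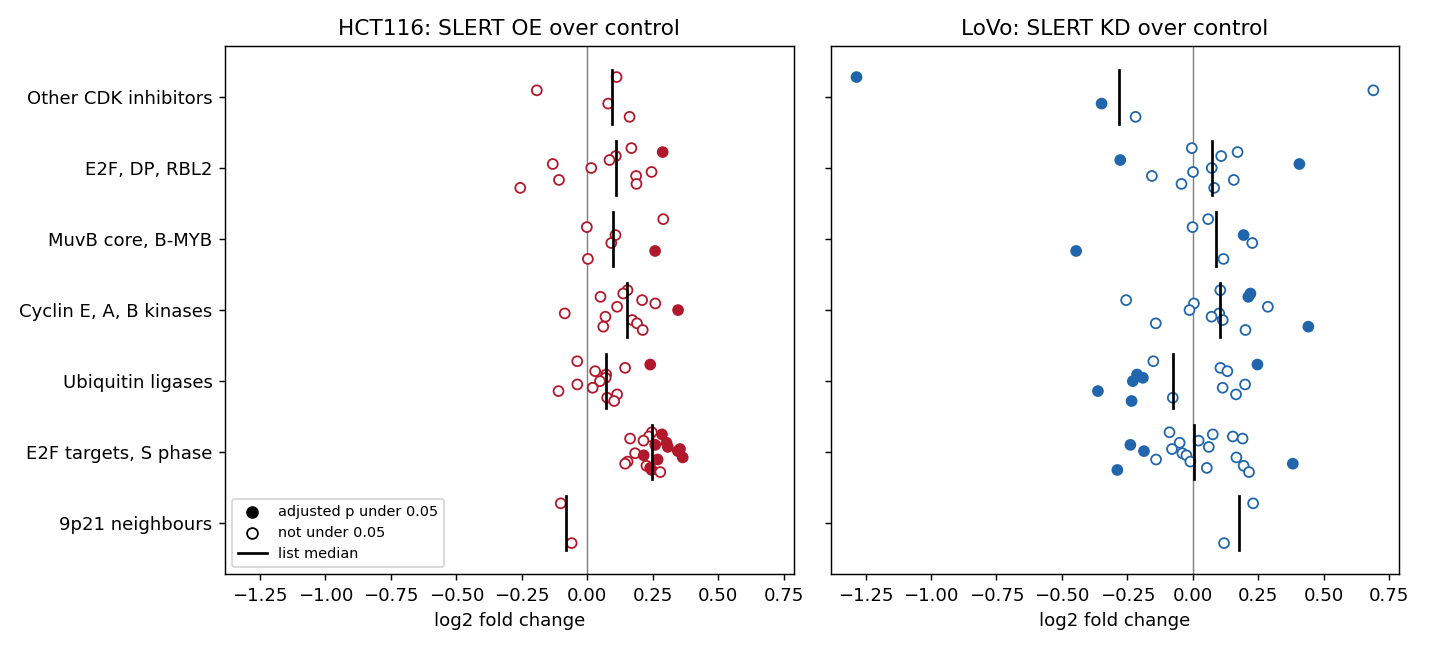
Log2 fold change (x axis) of each tested gene of the pathway lists (rows), in HCT116 with SLERT overexpression over control and in LoVo with SLERT knockdown over control. Filled points have an edgeR adjusted p under 0.05 and black lines are list medians. All 20 E2F targets lie right of 0 in HCT116 (median 0.25) and are spread around 0 in LoVo (median 0.01), where CDKN1A is the point at -1.28.

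Markers of other cells were read beside the changes in both lines. In HCT116 the summed level of 8 fibroblast and endothelial markers was 7.81 to 8.51 FPKM in OE libraries and 8.79 to 9.50 FPKM in controls, ranges that did not overlap, most of it COL1A1 (7.62 ± 0.379 FPKM with OE and 8.86 ± 0.354 FPKM in the controls, SD, n = 3 each). DCN had 0 counts in both HCT116 groups, and COL1A2 and CDH5 had 0 with OE. The 6 leukocyte markers summed to 0.493 to 1.18 FPKM with OE and 0.805 to 1.18 FPKM in HCT116 controls, and the 10 epithelial markers to 1117 to 1186 FPKM with OE and 1110 to 1154 FPKM in the controls. In LoVo the summed level of the fibroblast and endothelial markers was 0.511 to 0.655 FPKM in KD libraries and 2.18 to 2.30 FPKM in LoVo controls, most of it COL3A1 (0.314 ± 0.040 FPKM with KD and 1.91 ± 0.026 FPKM in the controls, SD, n = 3 each), and COL1A2 and CDH5 had 0 counts in both groups. Of the leukocyte markers, only LYZ was above 1 FPKM in LoVo, and the list summed to 1.36 to 1.71 FPKM with KD and 1.77 to 2.20 FPKM in the controls. The 10 epithelial markers summed to 1607 to 1697 FPKM with KD and 1828 to 1921 FPKM in the controls. The part of these differences in the changes of the cell cycle genes, the E2F targets in HCT116 included, was not tested.

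For each of the 10 genes, the gene with the most similar pattern over the 4 group means was taken from 13671 candidates, by the root mean square difference of centred log2 CPM. The nearest pattern to CCND2 was that of LINC02582, at 0.149, and the nearest to RB1 was that of ZDHHC3, at 0.00325. The other pairs were CCND1 with NRTN (0.0181), CCND3 with SCRIB (0.0232), CDK4 with IFT25 (0.0181) and CDK6 with MDM1 (0.0150). CDKN1B was paired with MCCC2 (0.0202), CDKN2A with MDFI (0.00691), CDKN2B with GET4 (0.00884) and RBL1 with VSNL1 (0.0298). The likeness is over 4 means only and describes these groups.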

How the data were processed

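RNA-seq values of 12 libraries were used. The deposited count table holds raw read counts per gene, and the deposited FPKM table holds the authors' values per gene length and library total. Per the submitters' processing notes, HISAT2 2.1.0 and the GRCh38 build were used. The read counter, its annotation and its use of strand are not given in these sources. Coordinates are from GENCODE v29 on GRCh38, and promoter sequences are from RefSeq (GRCh38.p14).

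Counts were tested with edgeR 4.0.16 in R 4.3.3 (quasi-likelihood F test, TMM factors, filterByExpr, Benjamini-Hochberg over all genes tested, calls at an adjusted p under 0.05), per line for OE and KD and over all 12 libraries for the difference and for the lines at baseline. The common biological coefficient of variation was 6.00% in HCT116 and 6.41% in LoVo. Chi-square per degree of freedom between libraries of a group ran from 2.40 to 6.63, so no library was a copy of another or differed from it by counting error alone. These values do not tell whether libraries came from separate cultures. Exact intervals (95%) of count ratios cover counting error only. The code was tested on simulated counts.

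Alternatives were DESeq2 1.42.0, RLE and upper quartile factors, no low-count filter, limma 3.58.1 on log2(FPKM + 1) and log2(FPKM + 0.1), which understates changes of low genes, leaving out each library, all 12 libraries in 1 fit and a replicate block. The members and lists were chosen with earlier results of these data known. Besides the 10 members, the text names the called genes of each list, at most the 3 with the smallest p per line, and the gene with the nearest pattern. Markers, neighbours, overlapping genes, uncalled relatives and the locus genes are named beside them.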

Additional observations from a re-analysis of the deposited data

Results flagged for a closer look

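RBL1 and CDKN2B were singled out because the labelled effects of more SLERT differed between the lines in the test of that difference. For RBL1 the difference was 0.61 on the log2 scale (edgeR adjusted p = 0.00247). All 3 OE libraries lay above each HCT116 control, and all 3 KD libraries above each LoVo control. For CDKN2B the difference was -0.46 (edgeR adjusted p = 0.0196). CDKN2B was lower in 3 of 3 KD libraries than in any LoVo control. With OE its log2 fold change was -0.20 (edgeR adjusted p = 0.407), and the OE libraries overlapped the HCT116 controls. The call of its difference was lost without OE 1 (edgeR adjusted p = 0.0591) or HCT116 control 1 (0.0676). A fall of SNORA5C, at an end of SLERT, was not detectable in the libraries labelled KD, with 37 counts there and 37 in the LoVo controls. The ratio was 0.967 with an exact counting interval of 0.596 to 1.57. The rest of SLERT was not read, and this limit touches the LoVo side of both values.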

How the results depend on the processing

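CCND1, CCND2 and CCND3 kept their calls in LoVo in all 14 alternatives, and RBL1 kept its difference between lines in all 18. The cause of the changes below was not tested, except that leaving out a library leaves fewer samples. The count of genes called in HCT116 (146) was 256 without the filter, 254 with DESeq2, 7 in both fits on FPKM, and 37 to 287 with 1 library left out. In LoVo (4278) it was 2845 on log2(FPKM + 1) and 2769 to 4813 with 1 library left out. The share of calls that were higher was 55.5% in HCT116, 41.8% with upper quartile factors and 44.0% with all 12 libraries, and in LoVo it was 47.9%, and 34.0% and 34.2% in the fits on FPKM. With 1 library left out, members called numbered 0 to 1 in HCT116 and 3 to 6 in LoVo (3 without LoVo control 3), and differences between lines numbered 1 to 3. The last was 4 on log2(FPKM + 1).

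Signs turned only where the change was small and not called, or, for CCND2, rested on few counts. With 1 library left out, log2 fold changes in HCT116 ran from -0.0266 to 0.0999 for CDKN1B (negative without OE 2 or control 1) and from -0.0947 to 0.222 for CDKN2A (negative without OE 3). In LoVo they ran from -0.0889 to 0.00658 for CDK4 (positive without control 3), from -0.0575 to 0.0741 for CDK6 (negative without KD 2) and from -0.0887 to 0.0532 for CDKN2A (negative without KD 1 or control 2). Between lines RB1 ran from -0.0470 to 0.0828 (negative without HCT116 control 2). For the difference, CCND2 ran from -0.593 to 1.52 (negative without OE 1, OE 2, HCT116 control 1 or control 3) and CDKN2A from -0.0958 to 0.226 (negative without OE 3). CDK6 in LoVo was -0.0165 on log2(FPKM + 1) and -0.0180 on log2(FPKM + 0.1). CDKN2A in LoVo was -0.00101 with RLE factors, -0.000682 with DESeq2, -0.000681 with the replicate block, and -0.0244 and -0.0334 on FPKM. RB1 between lines was -0.0289 with upper quartile factors, and -0.0753 and -0.0834 on FPKM. DESeq2 gave no adjusted p for CDKN2A, CDKN2B and RBL1 in HCT116.

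Same-numbered LoVo libraries correlated at 0.0164 to 0.0852 in their deviations from the group means, under the limit of 0.1 for pairing, although each library correlated best with its own number, a hint from the data. With the replicate block 5588 genes were called in LoVo, and no call among the 10 genes was lost. No paired analysis was possible for HCT116, the lines at baseline or the difference because the columns of the HCT116 controls, numbered here by their own headings, could not be tied to single samples of the labels.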

Other observations

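By FPKM, CDK6 and RB1 shared their order over the libraries in 3 of the 4 groups, a pattern chosen after the values were seen. Both were highest in OE 2 and HCT116 control 2 and lowest in OE 3 and HCT116 control 3, and both were highest in KD 2 and lowest in KD 1. In the LoVo controls both were nearly flat, at 12.37 to 12.45 FPKM for CDK6 and 8.94 to 9.02 FPKM for RB1. Among the 10 genes, LoVo control 3 held the highest normalised count of its group for 8.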
